A study of Mus musculus with 6 samples.

Results

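The genes of sterol and fatty acid metabolism were examined in mouse embryonic stem cells with and without Dppa2, a chromatin protein of pluripotent cells. The set holds 33 genes of the 18516 gene symbols that could be named on the array. The genes were chosen for their place in the pathway, but with earlier results of these data known. Counts over them therefore describe these data and are not a test on an independent list. The set holds 18 enzymes of cholesterol synthesis, 6 regulators of sterol balance, 7 enzymes of fatty acid synthesis and desaturation, and the 2 cholesterol exporters Abca1 and Abcg1. Where a gene had more than 1 probe, the probe with the highest mean log2 signal over the 6 arrays was used. All 33 probes were well above background on all 6 arrays.

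Total RNA was measured with 6 1-colour (Cy3) Agilent whole mouse genome arrays, 2 in each of 3 groups. The Flag-Dppa2 lines (15-1CT/CT, 15-2-/-) lacked Dppa2, also named ECAT15-2, and carried a piggyBac vector in which the CAG promoter, active in most cell types, drives Flag-tagged Dppa2. The mock lines were the same knockout lines (15-1CT/CT, 15-2-/-) with the vector without Dppa2. The wild-type (WT) lines (15-1+/+, 15-2+/+) were not transduced. CT is a conditional targeted allele of ECAT15-1 (Dppa4), the paralogue of Dppa2, so both comparisons with WT also contain this allele and the transduction. Each group holds 1 line from each of 2 mothers (replicates 1 and 2), and knockout line 1 and knockout line 2 were each measured with both vectors. The lines came from blastocysts on a mixed background of 129Sv, C57/BL6 and Cre or FLPe mice of unknown strain. All cells were grown on gelatin with 15% FCS and LIF, a cytokine that keeps embryonic stem cells undifferentiated.

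Cells make cholesterol from acetyl-CoA through the mevalonate pathway, and its enzymes are switched on together by the transcription factor SREBP-2 (Srebf2) when membrane sterols are low. When sterols are plentiful, Insig proteins hold SREBP-2 in the endoplasmic reticulum, while oxysterols activate the LXR receptors, of which Nr1h2 encodes LXR-beta. LXR switches on the exporters Abca1 and Abcg1 and the ubiquitin ligase Mylip, which removes lipoprotein receptors from the cell surface, so synthesis and efflux usually answer sterol supply in opposite directions. SREBP-1 (Srebf1) drives the fatty acid enzymes, and the factor NF-Y, which binds CCAAT boxes, acts with SREBP at many of these promoters.

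Promoter windows, from 250 bases before to 50 bases after the annotated start, were held in the RefSeq table (GRCm38.p6) for 25 of the 33 genes. The CCAAT box (CCAAT, either strand) was present in 14 of the 15 cholesterol synthesis genes with a window, against 41.1% of the 27025 genes in the table. It was also present in 4 of 5 regulators, in 1 of 4 fatty acid genes and not in the window of Abca1. A core of the sterol regulatory element (TCACNCCAC, either strand) was found in Hmgcs1 alone, against 1.44% of genes, and a DR4 element of the kind LXR binds (AGGT, any 7 bases, GGTCA, either strand) in none of the 25, against 0.303% of genes. A match describes the letters in these windows and not a bound site. Only 1 spelling of the sterol core was searched, so genes without a match may hold the element in other spellings. The 180 bases upstream of the start are shown 5′ to 3′ on the gene's strand for Mvk, Cyp51 and Hmgcs1. Mvk is the synthesis gene that passed the test, Cyp51 the one with the next largest difference, and Hmgcs1 the one with the match to the sterol core. Capitals mark CCAAT or its reverse ATTGG and, in Hmgcs1, the sterol element, and no match overlaps another. The stretches are chr5:114444089-114444268 (+ strand) for Mvk, chr5:4104698-4104877 (- strand) for Cyp51 and chr13:119690171-119690350 (+ strand) for Hmgcs1.
Mvk: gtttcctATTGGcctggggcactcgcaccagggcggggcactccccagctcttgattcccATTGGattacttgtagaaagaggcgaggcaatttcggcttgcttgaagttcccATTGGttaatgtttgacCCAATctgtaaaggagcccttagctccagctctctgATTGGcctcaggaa
Cyp51: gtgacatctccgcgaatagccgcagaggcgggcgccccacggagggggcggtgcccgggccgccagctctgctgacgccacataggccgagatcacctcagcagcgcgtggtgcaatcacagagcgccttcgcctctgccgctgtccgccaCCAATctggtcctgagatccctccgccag
Hmgcs1: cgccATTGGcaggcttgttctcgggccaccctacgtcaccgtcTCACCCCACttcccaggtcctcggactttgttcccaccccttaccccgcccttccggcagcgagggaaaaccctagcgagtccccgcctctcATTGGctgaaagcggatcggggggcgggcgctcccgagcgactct
Mvk holds 5 CCAAT matches in this stretch, at 14, 50, 67, 120 and 173 bases upstream of the start. Cyp51 holds 1, at 29 bases. Hmgcs1 holds 2, at 45 and 176 bases, on either side of the sterol element at 137 bases.

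Levels are given as the log2 signal minus the array's 75th percentile, and differences as log2 with the standard error (SE) of a limma fit over all 18764 features, in which calls were made where p, adjusted after Benjamini and Hochberg, was under 0.05. Dppa2 lay at -0.05 and 0.35 on the Flag-Dppa2 arrays, at -2.09 and -2.003 on the mock arrays and at 2.13 and 2.07 on the WT arrays. Dppa2 fell by 4.15 in mock against WT (adjusted p = 0.00565) and fell by 1.95 in Flag-Dppa2 against WT (adjusted p = 0.0409), and it rose by 2.20 in Flag-Dppa2 against mock (adjusted p = 0.0268), a level short of WT. With the replicate as a block the adjusted p was 0.0236 for mock against WT, while the calls of Flag-Dppa2 against WT (0.0924) and against mock (0.0666) were lost. Whether the Dppa2 probe lies in the deleted part is not given in the sources used here. Dppa4 was 0.59 above WT in mock (adjusted p = 0.0699) and 0.72 above WT in Flag-Dppa2 (adjusted p = 0.0876). The share of 14943 bright spots that differed beyond the 95% limit of the scanner's error model, where 5% would be due, was 24.7% between the Flag-Dppa2 arrays and 22.2% between the mock arrays, against 0.442% between the WT arrays. The WT arrays thus differed by less than measurement noise allows. They are labelled as lines of different mothers and were kept as 2 samples. With their mean counted as 1 sample, no feature was called in any of the 3 comparisons, so every call below rests on counting them as 2. The slide with both Flag-Dppa2 arrays held no other group, so slide and Flag-Dppa2 cannot be told apart, while mock and WT shared a slide. Of 6 Y-linked genes 3 were tested, and these had mean levels of -7.30 and -7.06 on the Flag-Dppa2 arrays and -6.96 and -7.42 on the mock arrays, against -0.90 and -0.95 on the WT arrays. The presence of Y transcripts and the genotype cannot be told apart, and Nsdhl and Ebp lie on the X chromosome.

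In mock against WT, 3 of the 33 genes were called, against 6.12% of all features. Abca1 and Mvk rose, against 2.47% of features, and Abcg1 fell, against 3.65%. Called or not, 22 of the 33 had both mock arrays above both WT arrays, against 37.2% of features, and 3 had both below, against 28.6%. An unadjusted p under 0.05 was found for 10 of the 33, against 27.3%. In Flag-Dppa2 against mock, limma called 0 of the 33, against 0.741% of features, while 19 of the 33 had an unadjusted p under 0.05, against 13.4%. This fit does not pair the knockout lines that the 2 groups share, and its spread includes the WT arrays. With limma over the 4 knockout arrays alone, 11 of the 33 had an unadjusted p under 0.05, and 25 with the replicate block. Neither fit called any of the 33, and the shares of all features under 0.05 in them are not given here. Over all 6 arrays, allowing the prior variance to depend on intensity called 1 in this comparison, Hmgcs1. In Flag-Dppa2 against WT, 1 of the 33 was called, against 0.533% of features in either direction and 0.144% upward. This was Abca1, which rose. Of the 33, 8 had an unadjusted p under 0.05, against 21.6%. The 3 comparisons share arrays pairwise, so their values are set side by side and are not independent of each other.

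**Figure D1:**
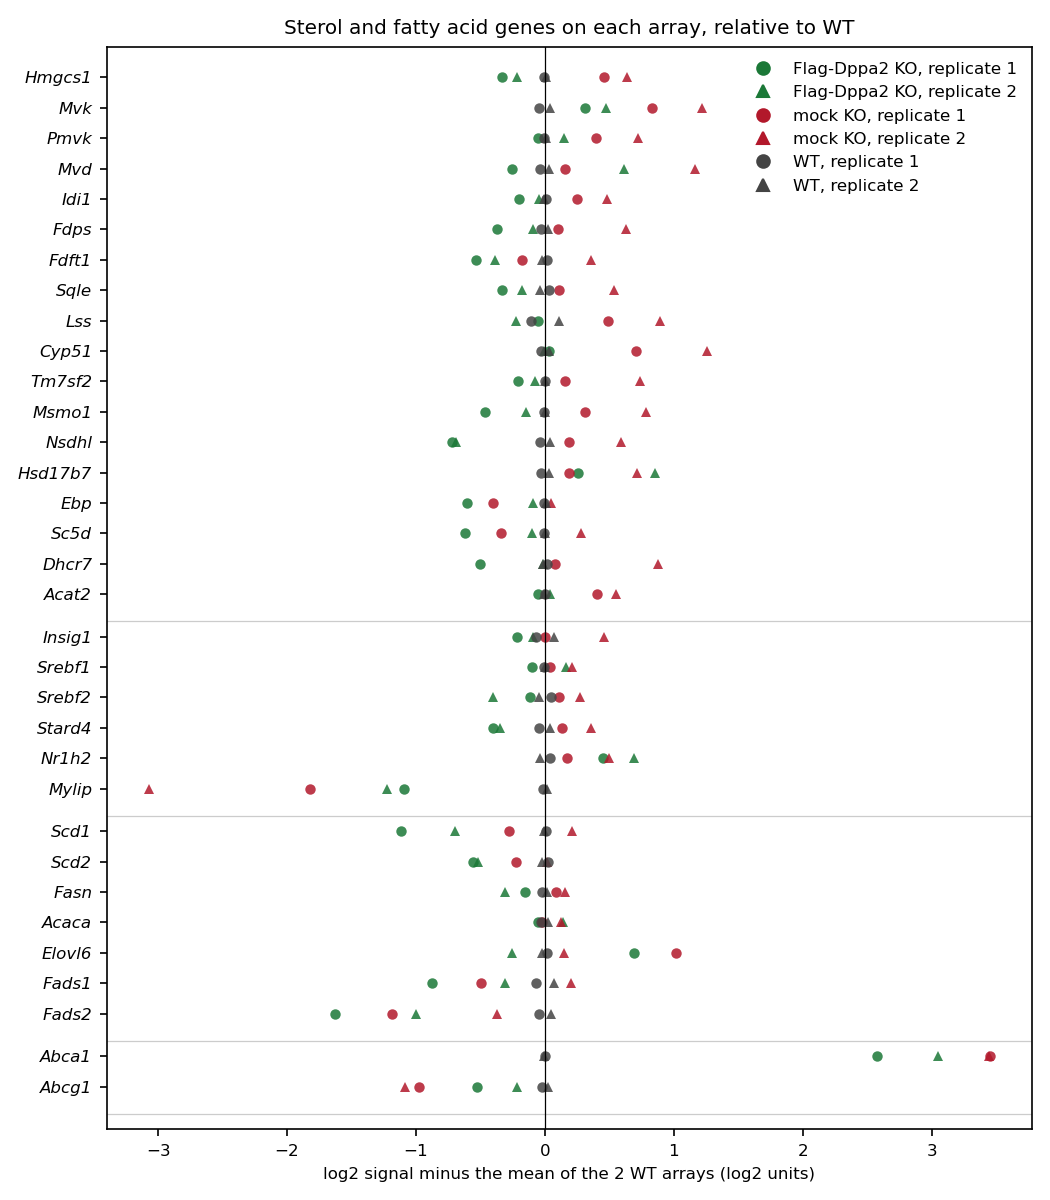
Log2 signal of each of the 33 genes on each array minus the mean of the 2 WT arrays (x axis, log2 units), with genes in rows by role: cholesterol synthesis, regulation, fatty acid synthesis and efflux from top to bottom. The WT arrays sit together near 0, Abca1 lies over 2.5 to the right on all 4 knockout arrays, Mylip lies to the left, and the mock arrays of most cholesterol synthesis genes lie to the right of the Flag-Dppa2 arrays.

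The exporters moved in opposite directions in the mock lines. Abca1, which loads cholesterol and phospholipid onto apolipoprotein A-I, lay at -0.86 and -0.38 on the Flag-Dppa2 arrays, at 0.02 and 0.01 on the mock arrays and at -3.43 and -3.44 on the WT arrays. The 3 groups did not overlap, and all 4 knockout arrays were far above WT. Abca1 was 3.45 higher in mock than in WT (SE 0.18, adjusted p = 0.00783, 10.9-fold) and 2.82 higher in Flag-Dppa2 than in WT (SE 0.18, adjusted p = 0.0312, 7.04-fold). With normexp background correction the differences were 2.48 and 1.90, both called. Flag-Dppa2 differed from mock by -0.64, with adjusted p = 0.271. Across the alternatives the adjusted p of Abca1 ran between 0.00594 and 0.136 for mock against WT and between 0.0248 and 0.369 for Flag-Dppa2 against WT, and with the replicate as a block the second of these was 0.0834. Leaving out any of the 6 arrays lost the call against WT for Flag-Dppa2, and leaving out either WT array lost it for mock. Abca1 lies on chromosome 4 and Abcg1 on chromosome 17, and each had 1 probe.

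Abcg1, which passes cholesterol to mature HDL particles, lay at -0.26 and 0.05 on the Flag-Dppa2 arrays, at -0.71 and -0.82 on the mock arrays and at 0.24 and 0.28 on the WT arrays. The mock arrays were lowest and the Flag-Dppa2 arrays lay between mock and WT, without overlap. Abcg1 fell by 1.03 in mock against WT (SE 0.14, adjusted p = 0.0351, 2.04-fold), with 0.0642 under the replicate block. Flag-Dppa2 differed from mock by 0.66 (adjusted p = 0.175) and from WT by -0.37 (adjusted p = 0.236). The call against WT was also lost without either mock array or either WT array.

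**Figure D2:**
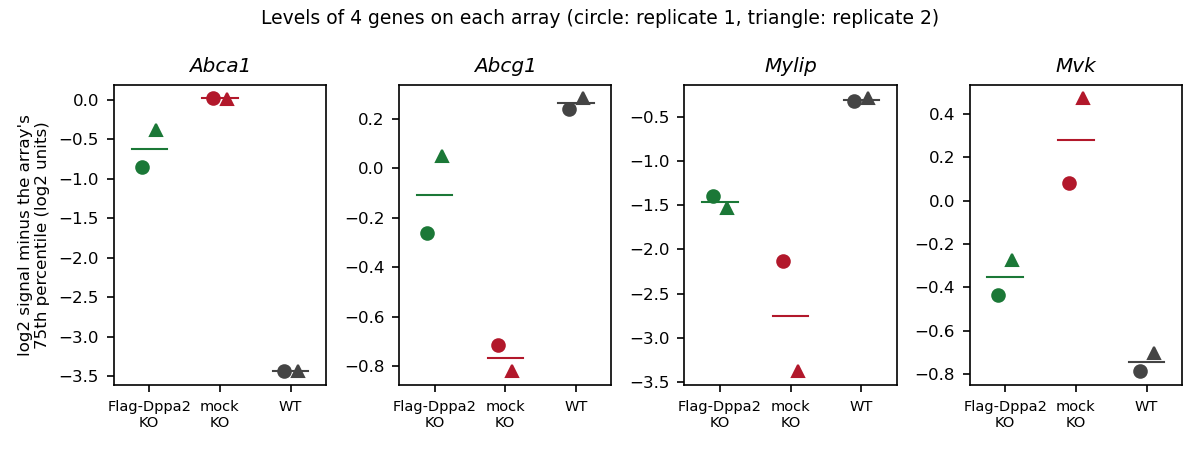
Level of Abca1, Abcg1, Mylip and Mvk on each array (y axis, log2 signal minus the array's 75th percentile, each panel with its own range), for Flag-Dppa2 KO, mock KO and WT from left to right; circles are replicate 1, triangles replicate 2 and bars the mean of 2 arrays. No groups overlap in any of the 4 panels, and the Flag-Dppa2 mean lies between the mock and WT means in each.

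Of the 18 cholesterol synthesis genes, Mvk alone was called in mock against WT on the probes used. Mvk, the kinase that phosphorylates mevalonate, lay at -0.44 and -0.27 on the Flag-Dppa2 arrays, at 0.08 and 0.47 on the mock arrays and at -0.79 and -0.70 on the WT arrays. The groups did not overlap, with mock highest and WT lowest. Mvk rose by 1.02 in mock against WT (SE 0.17, adjusted p = 0.0472, 2.03-fold), with adjusted p = 0.0558 under the replicate block and 0.0731 within the slide that mock and WT share. Its difference was -0.63 in Flag-Dppa2 against mock (adjusted p = 0.245) and 0.39 in Flag-Dppa2 against WT (adjusted p = 0.276). The dimmer probe of Mvk gave 0.51 in mock against WT with adjusted p = 0.177 where every probe was tested, and -0.09 in Flag-Dppa2 against WT. Leaving out any of the 6 arrays in turn lost the call of Mvk.

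Cyp51, the lanosterol demethylase, lay at 0.25 and 0.21 on the Flag-Dppa2 arrays, at 0.92 and 1.47 on the mock arrays and at 0.18 and 0.25 on the WT arrays. The mock arrays stood above the other 4, and the Flag-Dppa2 and WT arrays overlapped. The difference was 0.98 in mock against WT (SE 0.20, adjusted p = 0.0695), -0.97 in Flag-Dppa2 against mock (SE 0.20, adjusted p = 0.175) and 0.01 in Flag-Dppa2 against WT. Its other 2 probes gave 0.95 and 0.83 in mock against WT, and -1.02 and -0.87 in Flag-Dppa2 against mock. Where every probe was tested, their adjusted p in mock against WT was 0.0717 and 0.0417, against 0.0705 for the probe used. Whether Cyp51 was called thus depended on the probe.

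Nsdhl, which removes carboxyl groups at sterol carbon 4, lay at -0.55 and -0.52 on the Flag-Dppa2 arrays, at 0.36 and 0.76 on the mock arrays and at 0.13 and 0.21 on the WT arrays. Both Flag-Dppa2 arrays were below all other arrays. The difference from mock was -1.09 in Flag-Dppa2 (SE 0.16, adjusted p = 0.0940), the farthest from 0 of the 18 in that comparison. The difference of Flag-Dppa2 from WT was -0.70 (SE 0.16, adjusted p = 0.120), also the farthest of the 18, and that of mock from WT was 0.39 (adjusted p = 0.216). The other 2 probes of Nsdhl gave -0.92 and -0.87 in Flag-Dppa2 against mock.

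Hmgcs1, the cytosolic HMG-CoA synthase, is named here after its values were seen, since it had the lowest adjusted p of the 33 in Flag-Dppa2 against mock. It lay at 4.54 and 4.65 on the Flag-Dppa2 arrays, at 5.33 and 5.51 on the mock arrays and at 4.86 and 4.88 on the WT arrays. The groups did not overlap, with Flag-Dppa2 lowest and mock highest. The difference was -0.82 in Flag-Dppa2 against mock (SE 0.11, adjusted p = 0.0798), -0.27 in Flag-Dppa2 against WT (adjusted p = 0.258) and 0.55 in mock against WT (adjusted p = 0.0650). The other probe of Hmgcs1 gave -1.07 in Flag-Dppa2 against mock and 0.66 in mock against WT. Where every probe was tested its adjusted p was 0.192 and 0.170, against 0.0891 and 0.0684 for the probe used.

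Across the 18 cholesterol synthesis genes most differences pointed upward in mock against WT and downward in Flag-Dppa2 against mock. In mock against WT, 16 of the 18 had a difference above 0, against 54.5% of features, and 15 had both mock arrays above both WT arrays, against 37.2%. The exceptions were Ebp (-0.18) and Sc5d (-0.03), and the median of the 18 was 0.46, against 0.05 over all features. In Flag-Dppa2 against mock, 17 of the 18 had a difference below 0, and they were below 0 in both knockout lines, against 36% of features. Only Hsd17b7 was above 0 (0.11) there, and 14 of the 18 had both Flag-Dppa2 arrays below both mock arrays, against 19% of features. The median of the 18 was -0.58, against -0.01 over all features, with adjusted p between 0.0798 and 0.933. Of the 18, 11 had an unadjusted p under 0.05, against 13.4% of features. In Flag-Dppa2 against WT, 13 of the 18 were below 0, against 46.8% of features, with a median of -0.18 against 0.03, and 10 had both Flag-Dppa2 arrays below both WT arrays, against 27.1%. Mvk and Hsd17b7 were the 2 with both Flag-Dppa2 arrays above WT, against 33.2%. The other probes of Cyp51 (-0.07 and -0.04), Mvk (-0.09) and Pmvk (-0.01) were below 0 in Flag-Dppa2 against WT, opposite to the probes used. Across the 33 genes, 11 of 16 other probes well above background on all 6 arrays kept the sign in that comparison. In mock against WT 13 kept it, and in Flag-Dppa2 against mock 16. The counts above and below 0 were the same with quantile normalization and with the authors' log2 values in all 3 comparisons, and with normexp in the 2 of them with mock arrays, while normexp gave 12 below 0 in Flag-Dppa2 against WT.

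**Figure D3:**
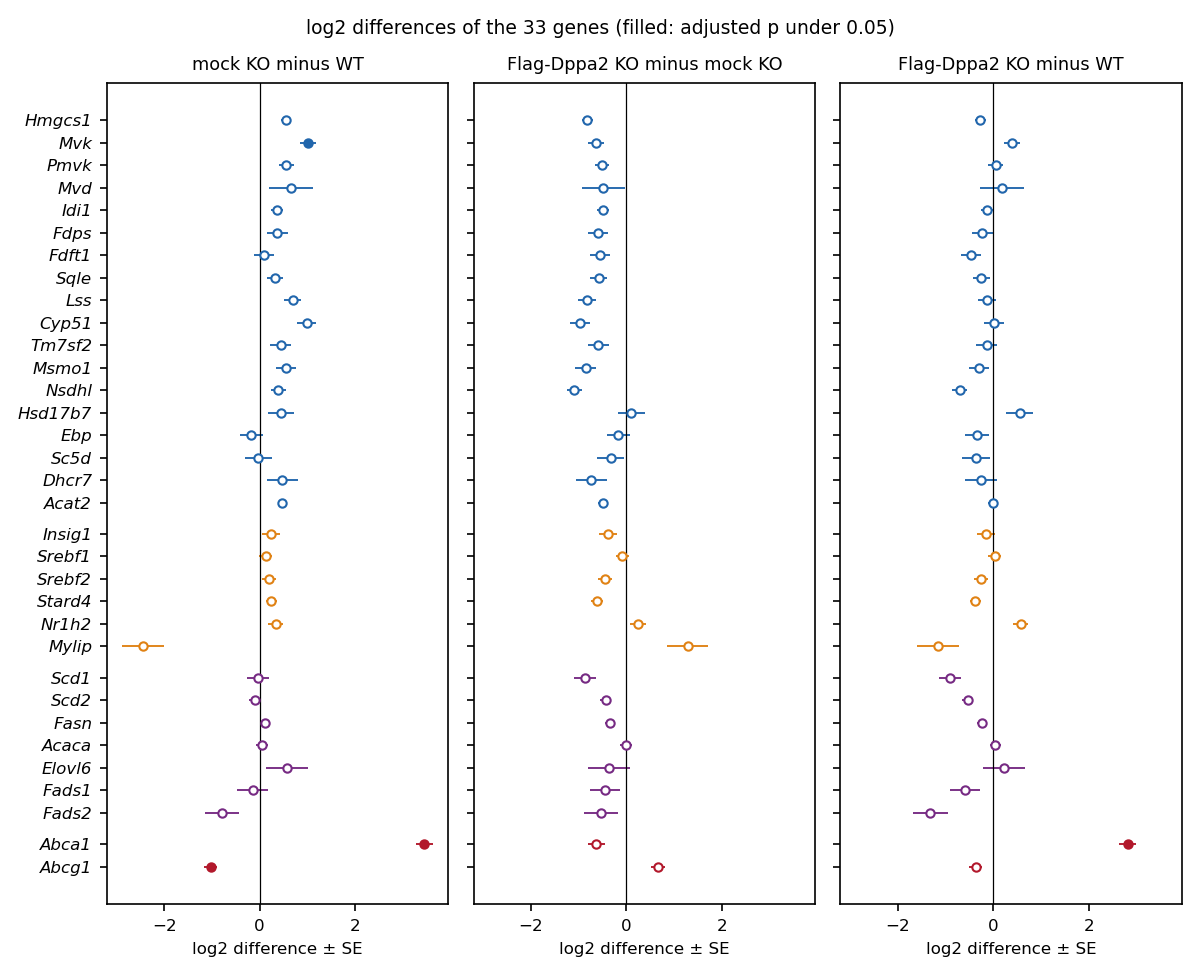
Log2 difference of each gene (x axis, points, bars are ± 1 SE of the fit) in the 3 comparisons, coloured by role: blue cholesterol synthesis, orange regulation, purple fatty acid synthesis and red efflux; filled points have an adjusted p under 0.05. Abca1, Mvk and Abcg1 are filled in mock against WT, none in Flag-Dppa2 against mock and Abca1 in Flag-Dppa2 against WT, and 17 of the 18 blue points lie left of 0 in the middle panel.

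The 2 knockout lines differed in the level of these enzymes. The mean level of the 18 cholesterol synthesis genes was 1.86 and 2.11 on the Flag-Dppa2 arrays and 2.34 and 2.81 on the mock arrays, against 2.11 and 2.13 on the WT arrays. Knockout line 2 lay above knockout line 1 in 16 of the 18 genes on the Flag-Dppa2 arrays, against 53.2% of features, and in 18 of the 18 on the mock arrays, against 51.4%. Each line had 1 array per vector, so this has no replicate check. The median difference of mock from WT was 0.19 in line 1 and 0.67 in line 2, and that of Flag-Dppa2 from mock was -0.45 in line 1 and -0.73 in line 2.

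**Figure D4:**
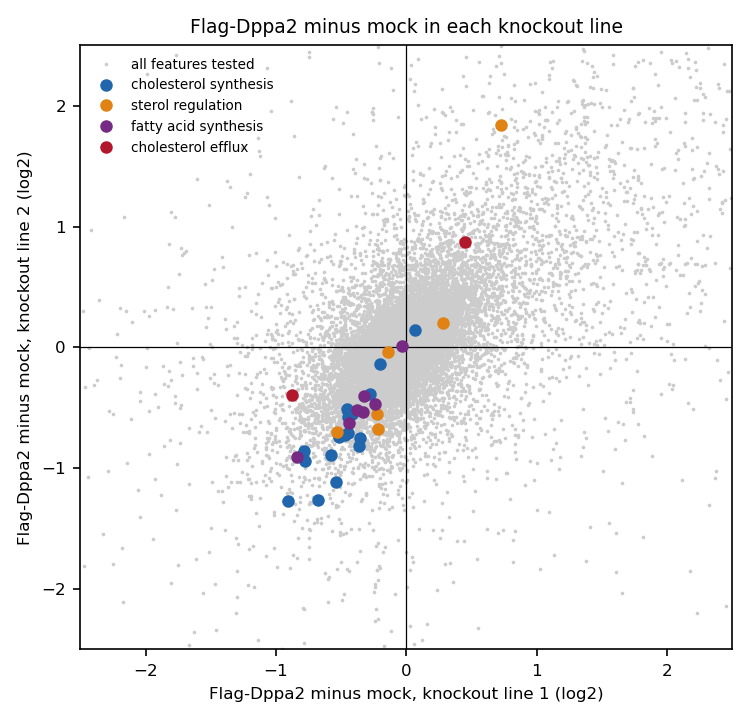
Flag-Dppa2 minus mock in knockout line 1 (x axis, log2) and line 2 (y axis, log2), each from 1 array per vector, with the 33 genes coloured by role over all features tested in grey; 562 features lie beyond the axes. Of the 18 cholesterol synthesis genes, 17 lie in the lower left with both lines below 0, and Mylip and Abcg1 lie in the upper right.

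Set beside synthesis, the efflux pair had a mean difference of 1.21 in mock against WT, where the 18 synthesis genes had 0.46. The means were 0.01 and -0.59 in Flag-Dppa2 against mock, and 1.22 and -0.13 in Flag-Dppa2 against WT. The mean of the pair joins opposite signs, since Abca1 was above WT and Abcg1 below it. The gap between the pair and the synthesis genes was 0.76 in mock against WT and 1.36 in Flag-Dppa2 against WT, and with normexp 0.34 and 0.91. Without mock replicate 1 the gap in mock against WT was 0.49, and without mock replicate 2 it was 1.02. In Flag-Dppa2 against mock the gap was 0.60, and it was 0.87 and 0.33 without those arrays. In mock against WT, Abca1 and most synthesis genes were thus above 0 in the same lines while Abcg1 was below. In Flag-Dppa2 against mock, Abca1 and 17 of the 18 synthesis genes were below 0 while Abcg1 was above, with no gene called.

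No regulator was called. Mylip lay at -1.40 and -1.54 on the Flag-Dppa2 arrays, at -2.13 and -3.38 on the mock arrays and at -0.32 and -0.29 on the WT arrays. The groups did not overlap, with mock lowest, and the mock arrays had an SD of 0.88, the highest of the 33 in that group. The difference was -2.45 in mock against WT (SE 0.43, adjusted p = 0.0527), 1.29 in Flag-Dppa2 against mock (adjusted p = 0.335) and -1.16 in Flag-Dppa2 against WT (adjusted p = 0.231). The adjusted p in mock against WT ran between 0.0230 and 0.336 over the alternatives, and it was under 0.05 with normexp, with quantile normalization, with the authors' log2 values, with probes above background on all 6 arrays, with an intensity trend and without either mock array.

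Insig1, the endoplasmic reticulum anchor and itself a target of SREBP, lay at -1.57 and -1.44 on the Flag-Dppa2 arrays, at -1.34 and -0.89 on the mock arrays and at -1.42 and -1.28 on the WT arrays. Mock and WT overlapped, and Flag-Dppa2 lay below both. Its differences were 0.23 in mock against WT, -0.39 in Flag-Dppa2 against mock and -0.16 in Flag-Dppa2 against WT. Srebf2 lay at 0.57 and 0.28 on the Flag-Dppa2 arrays, at 0.79 and 0.96 on the mock arrays and at 0.73 and 0.64 on the WT arrays. Its Flag-Dppa2 arrays were lowest and its mock arrays highest, with differences of 0.19 in mock against WT, -0.45 in Flag-Dppa2 against mock (adjusted p = 0.320) and -0.26 in Flag-Dppa2 against WT, and another probe of Srebf2 gave -0.42 in mock against WT. Srebf1 lay at 3.51 and 3.77 on the Flag-Dppa2 arrays, at 3.65 and 3.81 on the mock arrays and at 3.60 and 3.61 on the WT arrays. Its differences were 0.12 in mock against WT, -0.09 in Flag-Dppa2 against mock and 0.03 in Flag-Dppa2 against WT, and the last of these was -0.0424 with quantile normalization and -0.0427 with the authors' log2 values. Nr1h2 lay at 1.65 and 1.90 on the Flag-Dppa2 arrays, at 1.37 and 1.70 on the mock arrays and at 1.24 and 1.16 on the WT arrays. All 4 knockout arrays of Nr1h2 were above WT, by 0.33 for mock (adjusted p = 0.277) and 0.57 for Flag-Dppa2 (adjusted p = 0.160). Stard4, a cytosolic sterol carrier, had differences of 0.25, -0.62 and -0.37 in mock against WT, Flag-Dppa2 against mock and Flag-Dppa2 against WT, with adjusted p of 0.147 or more. Its other 2 probes gave -0.09 and -0.06 in mock against WT, opposite in sign.

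Of the 7 fatty acid genes none was called in any comparison. Limma gave 0 of them an unadjusted p under 0.05 in mock against WT, and 3 in each of the other comparisons. Among all features the shares were 27.3% in mock against WT, 13.4% in Flag-Dppa2 against mock and 21.6% in Flag-Dppa2 against WT. Scd1, a stearoyl-CoA desaturase, lay at 0.48 and 0.90 on the Flag-Dppa2 arrays, at 1.32 and 1.81 on the mock arrays and at 1.60 and 1.58 on the WT arrays. Both Flag-Dppa2 arrays were below the other 4, which overlapped by group. The difference was -0.88 in Flag-Dppa2 against mock (SE 0.23, adjusted p = 0.245), -0.91 in Flag-Dppa2 against WT (SE 0.23, adjusted p = 0.138) and -0.03 in mock against WT. Scd2, the desaturase that predominates in brain, lay at 4.65 and 4.69 on the Flag-Dppa2 arrays, at 4.98 and 5.22 on the mock arrays and at 5.23 and 5.19 on the WT arrays. It showed the same arrangement of groups, and Flag-Dppa2 differed from WT by -0.54 (adjusted p = 0.115). Fads2, the delta-6 desaturase of polyunsaturated fatty acids, lay at -0.84 and -0.21 on the Flag-Dppa2 arrays, at -0.40 and 0.42 on the mock arrays and at 0.74 and 0.84 on the WT arrays. WT was highest without overlap, and the knockout groups overlapped, and Flag-Dppa2 differed from WT by -1.32 (SE 0.36, adjusted p = 0.152) and mock by -0.78 (adjusted p = 0.253).

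The other fatty acid genes of the set were Fasn, Acaca, Elovl6 and Fads1. Fasn, fatty acid synthase, lay at 6.56 and 6.41 on the Flag-Dppa2 arrays, at 6.80 and 6.87 on the mock arrays and at 6.70 and 6.74 on the WT arrays, with Flag-Dppa2 lowest and mock highest on the probe used. This probe gave -0.23 in Flag-Dppa2 against WT, but the other Fasn probe gave 0.33, opposite in sign. The other Fasn probe, also well above background on 6 arrays, gave 0.53 in mock against WT and -0.21 in Flag-Dppa2 against mock. Acaca, acetyl-CoA carboxylase, differed by -0.01 to 0.05 in the 3 comparisons on the probe used. Another probe, well above background on 5 arrays, gave -1.02 in mock against WT, 0.27 in Flag-Dppa2 against mock and -0.75 in Flag-Dppa2 against WT, with adjusted p of 0.268 or more. A further one, well above background on 4 arrays, gave 0.15, -0.41 and -0.26 in the same order, with adjusted p of 0.773 or more. The elongase Elovl6 lay at 4.13 and 3.18 on the Flag-Dppa2 arrays, at 4.45 and 3.58 on the mock arrays and at 3.45 and 3.42 on the WT arrays, so knockout line 1 was high under both vectors. Fads1, the delta-5 desaturase, differed by -0.15 in mock against WT, -0.45 in Flag-Dppa2 against mock and -0.59 in Flag-Dppa2 against WT. The median of the 7 was -0.03 in mock against WT, -0.43 in Flag-Dppa2 against mock and -0.54 in Flag-Dppa2 against WT. All 7 were below 0 in Flag-Dppa2 against mock, against 51% of features.

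Other genes of these pathways were read from lists drawn up by pathway, also with earlier results of these data known. Of 13 other sterol transport and storage genes, all tested, 2 rose and 2 fell in mock against WT, where 2.47% of features rose and 3.65% fell, and none was called in the comparisons with Flag-Dppa2. With the replicate block these 4 calls and the 2 of the fatty acid list below were lost, at adjusted p of 0.0510 for Vldlr, 0.0528 for Acss2, 0.0596 for Thrsp, 0.0680 for Abca3, 0.0715 for Lrp8 and 0.0781 for Lipa. Each was also lost in at least 1 of the fits that left out a mock or Flag-Dppa2 array, where the highest adjusted p was between 0.0647 for Acss2 and 0.135 for Vldlr. Lrp8, a lipoprotein receptor, lay at -3.26 and -3.23 on the Flag-Dppa2 arrays, at -2.39 and -2.12 on the mock arrays and at -3.06 and -3.21 on the WT arrays, with mock above the other 4. It rose by 0.88 in mock against WT (SE 0.13, adjusted p = 0.0414). Abca3, a lipid transporter of the same family as Abca1, rose by 0.97 in mock against WT (SE 0.13, adjusted p = 0.0351) and differed from WT by 0.91 in Flag-Dppa2 (adjusted p = 0.0731). Vldlr, a receptor for triglyceride-rich lipoproteins, fell by 2.56 in mock against WT (SE 0.43, adjusted p = 0.0492) and differed from WT by -1.95 in Flag-Dppa2 (adjusted p = 0.115). Lipa, the lysosomal lipase that frees cholesterol from its esters, was not well above background on either mock array. It was at least 3.54-fold lower in mock than in WT (adjusted p = 0.0486), at -2.95 and -3.47 on the Flag-Dppa2 arrays, -7.36 and -5.93 on the mock arrays and -3.47 and -3.59 on the WT arrays. A bound of this kind sets the dim arrays at the lowest signal well above background.

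Of 18 other fatty acid genes, all tested, 2 fell in mock against WT, where 3.65% of features fell, and none was called otherwise. Acss2, an acetyl-CoA synthetase, lay at -2.16 and -2.08 on the Flag-Dppa2 arrays, at -2.07 and -2.30 on the mock arrays and at -1.08 and -1.10 on the WT arrays. All 4 knockout arrays were below WT. Acss2 fell by 1.09 in mock against WT (SE 0.12, adjusted p = 0.0228) and differed by -1.03 in Flag-Dppa2 against WT (adjusted p = 0.0568). Thrsp, a protein linked to lipogenesis, was not well above background on either mock array and was at least 2.26-fold lower there than in WT (adjusted p = 0.0372), while its Flag-Dppa2 and WT arrays overlapped. Of 16 other sterol regulators and enzymes 13 were tested and none was called, with unadjusted p under 0.05 for 2 in mock against WT, 1 in Flag-Dppa2 against mock and 2 in Flag-Dppa2 against WT. Of 9 other genes of the LXR pathway 7 were tested and none was called. Their unadjusted p was under 0.05 for 3, 3 and 0 in the same order. Among all features the shares under 0.05 were 27.3%, 13.4% and 21.6% in this order. Nr1h3, which encodes LXR-alpha, differed by 0.14 in mock against WT and by 0.00323 in Flag-Dppa2 against mock, where its arrays overlapped.

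Markers of other cell types moved between the groups. Of 14 fibroblast and feeder cell markers 11 were tested, and their mean level was -2.58 and -3.57 on the Flag-Dppa2 arrays and -3.48 and -4.62 on the mock arrays, against -1.92 and -1.75 on the WT arrays. Fbn1, Mmp2 and Loxl1 fell in mock against WT and rose in Flag-Dppa2 against mock, 3 of the 11 in each case, where 3.65% of features fell and 0.741% were called. With the replicate block their rise was not called (adjusted p of 0.0666, 0.0574 and 0.0839), and their fall was. Fbn1 and Loxl1 were not well above background on either mock array, and were at least 3.53-fold and 8.59-fold lower there than in WT. Of the 11, 10 were below 0 in mock against WT, while in Flag-Dppa2 against mock 8 were above 0 and 3 below. Col1a1 stayed low with both vectors, at -3.39 from WT in mock and -3.49 in Flag-Dppa2, and was not called. Of 10 primitive endoderm markers 7 were tested, with mean levels of -1.87 and -2.51 on the Flag-Dppa2 arrays, -3.35 and -4.18 on the mock arrays and -3.03 and -3.08 on the WT arrays. Amn alone of them was called, and it fell in mock against WT. There 2 of the 7 were above 0, against 54.5% of features, and 5 were below. Gata4, not well above background on either WT array, was at least 2.38-fold higher in mock (adjusted p = 0.0642). In Flag-Dppa2 against WT 6 of the 7 were above 0 and 1 was below, against 46.8% of features below 0. Of 6 macrophage markers, Cd68 had no named probe and none of the others passed the filter on dim probes. Of 10 pluripotent cell markers 9 were tested, with mean levels of 4.45 and 4.62 on the Flag-Dppa2 arrays, 4.56 and 4.78 on the mock arrays and 4.18 and 4.14 on the WT arrays. Utf1 alone of them was called, and it rose in mock against WT (adjusted p = 0.0384, and 0.0694 with the block). There 8 of the 9 were above 0, against 54.5% of features. In Flag-Dppa2 against mock 8 of the 9 were below 0, against 51% of features, with a median of -0.34. Of the 9, 7 were below 0 in both knockout lines, against 36% of features. Both Flag-Dppa2 arrays were below both mock arrays for 4, against 19%, and Pou5f1 (1.48) was the 1 above 0. In Flag-Dppa2 against WT Tfcp2l1 (-0.62) and Tdgf1 (-0.52) were the 2 below 0, against 46.8% of features. Pou5f1 was 2.26 above WT there (adjusted p = 0.0519). Zfp42, which enters the mean levels, lay at 3.56 and 6.35 on the Flag-Dppa2 arrays and at 3.57 and 6.39 on the mock arrays. On the WT arrays it lay at 3.57 and 3.63, so it was high in knockout line 2 alone, under both vectors. The part of these markers in the differences of the 33 genes was not tested, and in bulk RNA fewer cells of a type and less RNA per cell cannot be told apart.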

How the data were processed

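Total RNA of 6 samples was measured on 1-colour Agilent whole mouse genome arrays (G4122F). Per the file headers, the intensity values came from Feature Extraction 10.7.3.1 (protocol GE1_107_Sep09), which corrects background within each array. The deposited log2 values of the series matrix were made by the authors with GeneSpring GX11, per the series' design text. They tracked the scanner's log2 signals (r of at least 0.9997), all columns had a median of 5.84, and they served as 1 alternative. Their scale and quantile normalization were inferred from the values.

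Control spots (1639 of 45018) and outlier flags were left out, spots of a probe were averaged, and each array's 75th percentile (719 to 856 intensity units) was subtracted from the log2 signals. Between 55.9% and 60.4% of probes per array were well above background and no spot was saturated; the number of arrays limits the precision. Probes were named through RefSeq accessions (27143 of 41059 probes), and the headers name build mm9, so the only coordinates given are those of the RefSeq promoter table. Probes well above background on at least 2 arrays were kept, 1 per symbol, giving 13298 genes and 5466 unnamed probes. These were fitted together with limma 3.58.1 in R 4.3.3 (lmFit, eBayes, 3 groups, two-sided, Benjamini-Hochberg over all 18764), after a test on simulated data. Deviations from the group means correlated at 0.59 between same-numbered Flag-Dppa2 and mock arrays, which share a knockout line, and at 0.01 and -0.04 between WT and either of these groups, which share only the mother. The fit reported is the one without the replicate block.

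The 33 genes and the other lists were chosen with earlier results of these data known. Named in full are called genes, both exporters, 5 regulators and the 3 synthesis genes with the largest difference per comparison across cholesterol and fatty acids. Of the other lists, called genes are named. The alternatives covered the block, the averaging of WT, background correction, normalization, filters, probes, an intensity trend, the slide and each array left out.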

Additional observations from a re-analysis of the deposited data

Results flagged for a closer look

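In 3 genes the 2 knockout lines lay on opposite sides of WT by at least 0.25 (log2), each line being 1 array, so the difference between the lines was not tested. Sc5d, the desaturase of a late step of cholesterol synthesis, was -0.341 from the WT mean in line 1 of the mock group and 0.284 in line 2. Mvd, which makes isopentenyl diphosphate, was -0.258 from the WT mean in line 1 of the Flag-Dppa2 group and 0.617 in line 2. Elovl6 ran the other way, at 0.692 in line 1 of the Flag-Dppa2 group and -0.255 in line 2.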

How the results depend on the processing

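Of the 33 genes, 3 were called in mock against WT. This became 1 (Abca1) with the replicate block, which sets the same shift between replicates in all groups, 0 with the WT arrays averaged, 6 with normexp and 6 with an intensity trend (Cyp51, Hmgcs1 and Mylip in addition), and 1 with no filter on dim probes. It ran between 0 and 3 with each array left out, and was 0 without either WT array. In Flag-Dppa2 against mock it was 0, and 1 with an intensity trend. In Flag-Dppa2 against WT it was 1, and 0 with the replicate block, with WT averaged, with no filter and without any array in turn. The replicate block also ended the calls of Dppa2 in both comparisons with Flag-Dppa2, of Fbn1, Mmp2 and Loxl1 in Flag-Dppa2 against mock, of Eif2s3y, Ddx3y, Zfy2 and Loxl1 in Flag-Dppa2 against WT, and of 7 other named genes in mock against WT (Lipa, Vldlr, Lrp8, Abca3, Acss2, Thrsp and Utf1). Over all genes, 117 were called in Flag-Dppa2 against mock, with 3 under the replicate block and 0 over the 4 knockout arrays alone, 69 in Flag-Dppa2 against WT, with 0 under the block and 307 with normexp, and 889 in mock against WT (350 up, 539 down), with 391 (72 up, 319 down) under the block, 1359 (638 up, 721 down) with normexp, 1469 (709 up, 760 down) with the trend, 305 (25 up, 280 down) without the filter and 883 (457 up, 426 down) with probes above background on all 6 arrays.

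The mean gap between efflux and synthesis genes was 0.76 in mock against WT and 1.36 in Flag-Dppa2 against WT, and 0.34 and 0.91 with normexp. With normexp the regulators' median in Flag-Dppa2 against WT was -0.16, against -0.21. With each array left out, the median in Flag-Dppa2 against mock ran between -0.84 and -0.36 for cholesterol synthesis and between -0.35 and -0.0837 for regulators, and in Flag-Dppa2 against WT between -0.22 and -0.17 for regulators and between -0.56 and -0.31 for fatty acid genes. Small differences changed sign. Srebf1 in Flag-Dppa2 against WT was -0.0424 with quantile normalization and -0.0427 with the authors' log2 values, and between -0.10 and 0.17 with an array left out. Srebf1 in Flag-Dppa2 against mock ran between -0.22 and 0.0427, Cyp51 in Flag-Dppa2 against WT between -0.0187 and 0.046, and Scd1 in mock against WT between -0.28 and 0.21. The causes were not tested. Of the other single-gene values, 530 kept their direction and side of the threshold, 29 lost a call and 10 gained one, with the direction unchanged. Normexp used median signals and was chosen after seeing the files, which hold no mean signals. A fit with slide as a block was not possible for the comparisons with Flag-Dppa2.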

Other observations

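Lpcat3, an LXR target that remodels membrane phospholipids, lay at 0.68 and -2.09 on the Flag-Dppa2 arrays and at 1.03 and -1.97 on the mock arrays, against 1.03 and 1.04 on the WT arrays. Knockout line 2 was low under both vectors and line 1 lay near WT on the mock array, and Lpcat3 was called in no comparison. Mlxipl, a glucose-responsive regulator of lipogenesis, lay at -1.26 and -1.46 on the Flag-Dppa2 arrays and at -3.60 and -5.19 on the mock arrays, against -1.23 and -1.19 on the WT arrays. Both mock arrays were below the other 4, with a difference of -3.19 from WT (SE 0.55, adjusted p = 0.0505) and of 3.04 for Flag-Dppa2 against mock (adjusted p = 0.134). Pltp, the phospholipid transfer protein, lay at -0.30 and 0.07 on the Flag-Dppa2 arrays and at 0.86 and 0.88 on the mock arrays, against 0.03 and 0.08 on the WT arrays. Its mock arrays were above the other 4, and mock differed from WT by 0.82 (SE 0.15, adjusted p = 0.0570). These 3 were chosen after their values were seen.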
